A study of Homo sapiens with 8 samples.

Results

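The 10 genes described here were 7 genes of secreted or membrane-bound signals and 3 genes of feedback regulators of NF-κB, the transcription factor family that drives inflammatory gene expression. The signals were the chemokines *CXCL1*, *CXCL2*, *CXCL3*, *CXCL8*, *CCL20* and *CX3CL1* and the cytokine *IL6*, and the regulators were *NFKBIA*, *TNFAIP3* and *BIRC3*. All 10 were found by symbol among the 57815 gene identifiers of the expression files. They were chosen by name with their level in each line and their response to DEM in these libraries in view, so both are given as a description, with no test. RNA was sequenced from ABC1 and HCC4006, established lung adenocarcinoma cell lines with an intact KEAP1-NRF2 system, of which each is a single line. Cells of each line received 100 μM of DEM (diethyl maleate, an electrophile that inhibits KEAP1 and so stabilises the transcription factor NRF2) or the vehicle DMSO, and RNA was taken 16 h later. The compound is named here as in the study's methods, whereas the title of the series names dimethylmaleate. Each of the 4 groups (ABC1 with vehicle, ABC1 with DEM, HCC4006 with vehicle, HCC4006 with DEM) held 2 libraries from biological duplicates, numbered 0 and 1, which made 8 libraries in all. Levels are given in FPKM, fragments scaled to transcript length and to the number of mapped fragments, which allows levels of different genes to be set side by side.

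In resting cells, NF-κB dimers are held in the cytoplasm by inhibitors such as IκBα, the product of *NFKBIA*. Signals from TNF, IL-1 and Toll-like receptors activate the IκB kinase, IκBα is degraded, and the freed dimers enter the nucleus and induce chemokines, cytokines and their own inhibitors. IκBα, A20 (the product of *TNFAIP3*, an enzyme that edits ubiquitin chains) and cIAP2 (the product of *BIRC3*, a ubiquitin ligase of the TNF receptor complex) are themselves products of this response. CXCL1, CXCL2, CXCL3 and CXCL8 attract neutrophils, CCL20 attracts cells that carry CCR6, CX3CL1 is a chemokine tethered to the membrane, and IL-6 is a cytokine that signals through IL6R and IL6ST. Lung epithelial and carcinoma cells are among the sources of these signals.

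The sum of FPKM values of a library does not measure its yield, because FPKM is already scaled to mapped fragments. In ABC1 the sums were 628775 and 627085 in the libraries numbered 0 and 697394 and 737534 in those numbered 1. The largest sum of FPKM values was 1.18 times the smallest, 12515 to 13573 genes per library reached 1 FPKM, and log2(FPKM + 1) correlated between the replicates of a group with r from 0.992 to 0.995 across genes, which are not independent replicates. Depth is known only from the base mean, the authors' mean over a line's libraries of counts scaled to a common depth. These base means summed to 13786938 in ABC1 and 13957320 in HCC4006. The 8 genes taken here as canonical NRF2 targets, among them *NQO1*, *GCLM* and *HMOX1*, were all called higher with DEM in both lines. Of all genes tested, 0.768% were called higher in ABC1 and 8.45% in HCC4006. The median log2 fold change of the 8 was 2.60 in ABC1 and 2.52 in HCC4006. They were chosen with earlier results of these data known. All 6 epithelial markers exceeded 1 FPKM in every group, and their sum was lower with DEM, at 4970 to 5820 FPKM with vehicle and 3670 to 4080 with DEM in ABC1, and at 4390 to 4580 and 3440 to 3490 in HCC4006. The keratin genes among them (*KRT7*, *KRT8*, *KRT18* and *KRT19*) had lower means with DEM in both lines. Mean *EPCAM* was 394.6 FPKM with vehicle and 393.4 with DEM in ABC1, and 244.3 and 254.4 in HCC4006. Mean *CDH1* was 119 and 119.4 FPKM in ABC1, and 156 and 141.5 in HCC4006. The part of the lower epithelial sum in the results below was not tested. Of 6 lung adenocarcinoma markers, *NKX2-1*, *NAPSA* and *MUC1* exceeded 1 FPKM in HCC4006, whereas ABC1 passed 1 FPKM with *MUC1* alone and had *SFTPB* and *SFTPA1* at 0. In ABC1, *NKX2-1*, which encodes the lineage factor of lung epithelium, lay between 0.502 and 0.763 FPKM. Leukocyte markers were below 1 FPKM with the exception of *CSF1R* in HCC4006, and the sum of the 8 lay between 6.69 and 6.97 FPKM with vehicle and between 6.84 and 8.83 with DEM in that line, and at most 0.901 FPKM in ABC1. The pan-leukocyte gene *PTPRC* did not exceed 0.192 FPKM in any library, and the T-cell gene *CD3E* was at 0 in ABC1 and in HCC4006 with DEM. Fibroblast markers summed to 8.51 to 9.34 FPKM with vehicle and 7.22 to 7.59 with DEM in HCC4006 (3.81 to 6.39 in ABC1). Mean *COL1A1* was 7.605 FPKM with vehicle and 6.457 with DEM in HCC4006, and 4.925 and 4.653 in ABC1. In HCC4006, mean *COL1A2* was 1.205 FPKM with vehicle and 0.8065 with DEM, and *DCN* was at 0. The sum of 4 endothelial markers lay between 0.484 and 0.584 FPKM with vehicle and between 0.17 and 0.205 with DEM in HCC4006, and at most at 0.236 in ABC1. Since RNA was taken from whole cultures, fewer cells of a kind and less RNA per cell cannot be told apart.

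The genes of *CXCL1*, *CXCL2*, *CXCL3* and *CXCL8* lie on chromosome 4. In GRCh37, *CXCL8* (ENSG00000169429.6) spans positions 74606236 to 74609433 and *CXCL1* (ENSG00000163739.4) 74735110 to 74737025, both on the plus strand. *CXCL3* (ENSG00000163734.4, 74902306 to 74904524) and *CXCL2* (ENSG00000081041.8, 74962757 to 74964913) lie on the minus strand. *CCL20* (ENSG00000115009.7) lies on chromosome 2 at 228670455 to 228682280, *IL6* (ENSG00000136244.7) on chromosome 7 at 22765503 to 22771621, and *CX3CL1* (ENSG00000006210.6) on chromosome 16 at 57406389 to 57418956, each on the plus strand. Of the regulators, *NFKBIA* (ENSG00000100906.6) lies on the minus strand of chromosome 14 at 35870285 to 35873955. *TNFAIP3* (ENSG00000118503.10) and *BIRC3* (ENSG00000023445.9) lie on the plus strand, on chromosome 6 at 138188351 to 138204451 and on chromosome 11 at 102188215 to 102210134. *IL6* overlaps *STEAP1B* and *IL6-AS1*, *TNFAIP3* overlaps *WAKMAR2*, and *BIRC3* overlaps a long noncoding RNA gene, each on the opposite strand. The libraries were made with a strand-specific kit, but whether strand was used in the counting is not given in the sources used here, so reads of these 3 genes and of their antisense partners may not be separated.

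The stretch just upstream of the transcription start is shown for 6 of the genes, because NF-κB sites of these promoters are the feature by which the genes are usually grouped. The sequences are those of RefSeq on GRCh38.p14, 100 bases ending 1 base before the start, 5′ to 3′ on the strand of the gene. Capitals mark each match to GGNNTTTCC, the 9 letters that a search of both strands used, and a match on the opposite strand reads GGAAANNCC.
CXCL1 (chr4:73869293-73869392, plus strand): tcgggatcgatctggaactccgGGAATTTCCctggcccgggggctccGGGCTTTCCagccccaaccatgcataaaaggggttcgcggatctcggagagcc
CXCL2 (chr4:74099196-74099295, minus strand): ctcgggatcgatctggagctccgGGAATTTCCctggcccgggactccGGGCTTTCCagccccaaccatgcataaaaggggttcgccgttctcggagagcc
CXCL3 (chr4:74038690-74038789, minus strand): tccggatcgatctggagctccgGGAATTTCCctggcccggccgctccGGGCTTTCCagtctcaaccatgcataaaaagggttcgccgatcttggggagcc
CXCL8 (chr4:73740469-73740568, plus strand): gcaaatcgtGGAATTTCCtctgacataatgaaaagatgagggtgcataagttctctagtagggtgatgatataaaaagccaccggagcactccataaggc
IL6 (chr7:22727100-22727199, plus strand): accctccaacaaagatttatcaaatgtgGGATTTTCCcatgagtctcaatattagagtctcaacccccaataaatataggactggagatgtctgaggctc
NFKBIA (chr14:35404750-35404849, minus strand): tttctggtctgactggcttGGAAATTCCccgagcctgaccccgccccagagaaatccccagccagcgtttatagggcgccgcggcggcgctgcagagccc

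RefSeq promoters, which here run from 250 bases before to 50 bases after the start, were held for 9 of the 10 genes, all but *CX3CL1*. GGNNTTTCC was present in 9 of the 9, beside 2198 of 35116 promoters of all genes (6.26%). These letters were chosen after the promoters of the 9 had been looked at, so the count is a description. *CXCL1* and *CXCL3* each held 1 match 78 to 70 bases and another 53 to 45 bases before the start, and in *CXCL2* they lay 77 to 69 and 53 to 45 bases before it. The single match of *CXCL8* lay 91 to 83 bases and that of *IL6* 72 to 64 bases before the start. A general NF-κB consensus, which shares letters with GGNNTTTCC and overlaps many of its matches, was found in 8 of the 9 (all but *CXCL8*) and in 5.91% of all promoters. TATAAA was found in 3 of the 9 (*CXCL8*, *CCL20* and *NFKBIA*) and in 11.5% of all promoters. TGACNNNGC, the core of the antioxidant response element to which NRF2 binds, was found in 1 of the 9, *NFKBIA*, and in 13.3% of all promoters. A match is a stretch of letters and not a bound site. Over 300 bases, the promoters of *CXCL1* and *CXCL3* were identical at 84.7% of positions, those of *CXCL2* and *CXCL3* at 78.3% and those of *CXCL1* and *CXCL2* at 77%, whereas *CXCL8* was identical to the other 3 at 48% to 50.3%.

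In HCC4006 with vehicle the order by mean level was *NFKBIA* (82.9 ± 10.3 FPKM, SD, n = 2), *TNFAIP3* (13.4 ± 0.540), *CX3CL1* (10.4 ± 0.0521), *CXCL8* (10.1 ± 2.98), *BIRC3* (5.15 ± 0.293), *IL6* (5.07 ± 1.69), *CXCL2* (2.96 ± 0.0874), *CXCL1* (0.882 ± 0.270), *CCL20* (0.235 ± 0.190) and *CXCL3* (0.0680 ± 0.0961). Neighbours in this order whose libraries overlapped were *CX3CL1* and *CXCL8*, *BIRC3* and *IL6*, and *CCL20* and *CXCL3*. In ABC1 with vehicle the order was *NFKBIA* (63.2 ± 14.7 FPKM), *BIRC3* (4.61 ± 1.84), *TNFAIP3* (1.55 ± 0.190), *CXCL8* (0.440 ± 0.0379), *IL6* (0.311 ± 0.109), *CXCL2* (0.0745 ± 0.105) and *CXCL3* (0.0385 ± 0.0544), with *CXCL1*, *CCL20* and *CX3CL1* listed at 0. The libraries of *CXCL2* and *CXCL3* overlapped there. Of the 10 genes, the 3 regulators thus had a mean above 1 FPKM in both lines, whereas 4 of the 7 signals (*CXCL2*, *CXCL8*, *IL6* and *CX3CL1*) did so in HCC4006 and 0 of the 7 in ABC1. Between vehicle groups, *CXCL8* was 22.9-fold higher in HCC4006 than in ABC1 and *TNFAIP3* 8.63-fold higher. *NFKBIA* was 1.31-fold and *BIRC3* 1.12-fold higher, and for *BIRC3* the libraries of the lines overlapped.

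**Figure D1:**
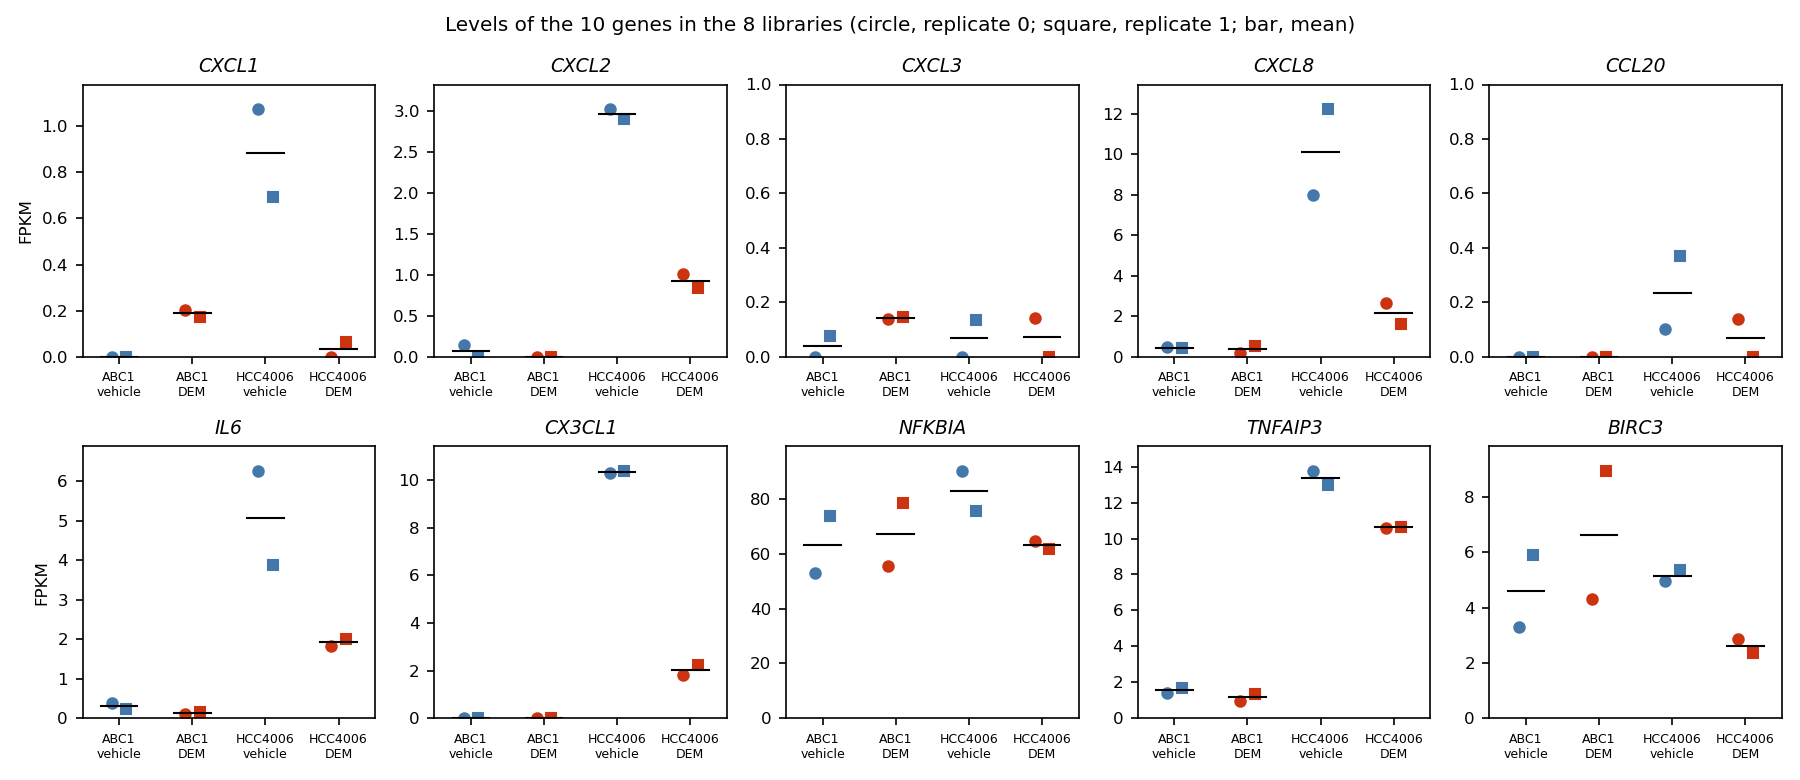
FPKM of each of the 10 genes in the 8 libraries, 1 panel per gene with its own axis from 0. Blue points are vehicle and red points DEM libraries, circles are replicate 0 and squares replicate 1, and the bar is the mean of 2. In HCC4006, the 7 genes that reached a mean of 1 FPKM had both red points below both blue points, as had 35.3% of all genes tested in that line, and in ABC1 most chemokines lay at or near 0.

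The test set DEM against vehicle in 1 line at a time, with limma on log2(FPKM + 1). Genes whose mean FPKM in the line reached 1 were tested, and a gene was called at a Benjamini-Hochberg adjusted p under 0.05. In ABC1, 0.768% of the 12635 genes tested were called higher and 0.435% lower. In HCC4006, 8.45% of the 13542 genes tested were called higher and 10.7% lower. In ABC1, 3 of the 10 genes (*NFKBIA*, *TNFAIP3* and *BIRC3*) reached the minimum, and in HCC4006 7 reached it. Because the genes were chosen on this contrast, no call is given for them. Both DEM libraries lay below both vehicle libraries for 7 of these 7 genes in HCC4006, beside 35.3% of all genes tested there, and for 1 of these 3 in ABC1 (*TNFAIP3*), beside 28.2%, and nothing is read from these counts. The genes that did not reach the minimum were *CXCL1*, *CXCL3* and *CCL20* in both lines, and also *CXCL2*, *CXCL8*, *IL6* and *CX3CL1* in ABC1.

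*CXCL8*, which encodes interleukin-8, had 7.99 and 12.2 FPKM in the vehicle libraries of HCC4006 and 2.66 and 1.62 with DEM. Its mean level was 4.72-fold lower with DEM (log2 fold change -1.82, standard error 0.24), and the groups did not overlap although the vehicle libraries differed from each other. In ABC1 it had 0.467 and 0.414 FPKM with vehicle and 0.208 and 0.545 with DEM, with a base mean of 8.07, and the DEM libraries lay on either side of the vehicle libraries. *CXCL2* had 3.02 and 2.89 FPKM with vehicle in HCC4006 and 1.003 and 0.840 with DEM. That is a 3.21-fold lower mean level (log2 fold change -1.04, standard error 0.16), and the log2 value understates the ratio because of the pseudocount of 1. In ABC1, *CXCL2* was listed at 0 in 3 libraries and at 0.149 FPKM in the vehicle library numbered 0.

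*CXCL1* stood at 1.07 and 0.692 FPKM with vehicle in HCC4006 and at 0 and 0.0659 with DEM, on a base mean of 4.68, so no fold is given. In ABC1 it was listed at 0 in both vehicle libraries and had 0.204 and 0.173 FPKM with DEM, on a base mean of 1.24. The DEM libraries thus lay below the vehicle libraries in HCC4006 and above them in ABC1, at a few reads per library in either line. *CXCL3* did not exceed 0.145 FPKM in any library, and its base mean was 0.998 in ABC1 and 0.512 in HCC4006, too few reads for a comparison. Because *CXCL1*, *CXCL2* and *CXCL3* are paralogs among which reads could be split, their summed level was taken as well. The sum was 4.09 and 3.72 FPKM with vehicle and 1.15 and 0.906 with DEM in HCC4006, and 0.149 and 0.0769 with vehicle and 0.344 and 0.318 with DEM in ABC1. The groups did not overlap in either line, with DEM lower in HCC4006 and higher, at a very low level, in ABC1. Of all genes tested in HCC4006, 35.3% had both DEM libraries below both vehicle libraries. The share with DEM above vehicle in ABC1 was not taken. The neighbouring chemokine genes of the same cluster (*CXCL5*, *CXCL6*, *PF4*, *PF4V1* and *PPBP*) stayed below 1 FPKM in every library. *CXCL5*, whose product is also a neutrophil attractant, had 0.580 and 0.550 FPKM with vehicle and 0.144 and 0.183 with DEM in HCC4006.

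*CX3CL1*, the gene of fractalkine, was listed at 0 in all 4 libraries of ABC1. In HCC4006 it had 10.3 and 10.4 FPKM with vehicle and 1.82 and 2.23 with DEM. The mean level was 5.11-fold lower with DEM (log2 fold change -1.91, standard error 0.13), the widest gap among the 7 genes that reached the minimum in that line, and the vehicle libraries lay closer together than for any of the other 6. *CCL20* was also at 0 in all libraries of ABC1 and had 0.101 and 0.370 FPKM with vehicle and 0.138 and 0 with DEM in HCC4006, on a base mean of 0.740. *IL6* had 6.26 and 3.87 FPKM with vehicle in HCC4006 and 1.83 and 2.00 with DEM, a 2.64-fold lower mean level (log2 fold change -1.03, standard error 0.22). The groups did not overlap, and the vehicle libraries were further apart than the DEM libraries. In ABC1, *IL6* stood at 0.388 and 0.233 FPKM with vehicle and at 0.104 and 0.164 with DEM, on a base mean of 2.23.

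With all 4 libraries, the 3 regulators had smaller log2 differences in HCC4006 than the 4 signals that reached the minimum there. Without the vehicle library numbered 0, the log2 fold change was -0.82 for *BIRC3* and -0.74 for *IL6*, so this order did not hold. *NFKBIA*, the most abundant of the 10 in every library, had 90.2 and 75.6 FPKM with vehicle in HCC4006 and 64.6 and 61.5 with DEM. Its mean level was 1.31-fold lower with DEM (log2 fold change -0.38, standard error 0.10). *TNFAIP3* had 13.8 and 13.0 FPKM with vehicle and 10.6 and 10.7 with DEM in that line, a ratio of 1.26 (log2 fold change -0.31, standard error 0.10). *BIRC3* had 4.94 and 5.36 FPKM with vehicle and 2.88 and 2.37 with DEM, a 1.97-fold lower mean level (log2 fold change -0.77, standard error 0.14). For all 3 regulators both libraries with DEM lay below both vehicle libraries, as for 35.3% of all genes tested there. Nothing is read from this.

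In ABC1, *NFKBIA* had 52.8 and 73.6 FPKM with vehicle and 55.4 and 78.6 with DEM (log2 fold change 0.08, standard error 0.23). *BIRC3* had 3.31 and 5.91 FPKM with vehicle and 4.29 and 8.94 with DEM (log2 fold change 0.41, standard error 0.36). For both genes the groups overlapped, the 2 libraries numbered 1 were higher than the 2 numbered 0, and leaving out 1 library moved the value across 0. Without DEM library 1 it was -0.17 for *NFKBIA* and -0.04 for *BIRC3*, and without DEM library 0 it was 0.33 and 0.87. *TNFAIP3* had 1.42 and 1.69 FPKM with vehicle and 0.979 and 1.35 with DEM (log2 fold change -0.24, standard error 0.22), with the DEM libraries just below the vehicle libraries.

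The rest of the pathway was taken as 9 lists of other genes by role, 191 in all, of which 178 were found by symbol. With DEM in HCC4006, 15 of the 110 tested were called higher (13.6%, beside 8.45% of all genes) and 17 lower (15.5%, beside 10.7%), with p-values of limma adjusted over the whole table. Their median log2 fold change was 0.06, beside -0.03 over all genes tested. In ABC1, 1 of 97 was called higher and 2 lower (0.768% and 0.435% of all genes), and the median log2 fold change was 0.09 beside -0.02. An unadjusted p under 0.05 by limma was reached by 30 of the 97, beside 21.9% of all genes tested there. The model of all 8 libraries tested 109 of the pathway genes and 13682 genes in all. It called 12 pathway genes higher and 5 lower in ABC1, beside 738 and 756 of all genes. In HCC4006 it called 3 higher and 14 lower, beside 706 and 847 of all genes. A block for the replicate number gave 20 higher and 7 lower calls in ABC1, beside 1185 and 1163 of all 12635 genes. In HCC4006 the block gave 20 and 20, beside 1457 and 1847 of all 13542 genes. With any 1 of the 4 libraries of a line left out, between 1 and 4 genes of these lists were called higher in HCC4006 and between 9 and 13 lower, and 0 were called in either direction in ABC1. *CCL2*, *LIF*, *TNFSF15*, *PTGS2*, *TNFAIP8* and *DUSP1* were called in HCC4006 under all 10 alternatives to the test. Of the 17 called lower there, 10 were called under at least 8 alternatives, and of the 15 called higher, 1 was.

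**Figure D2:**
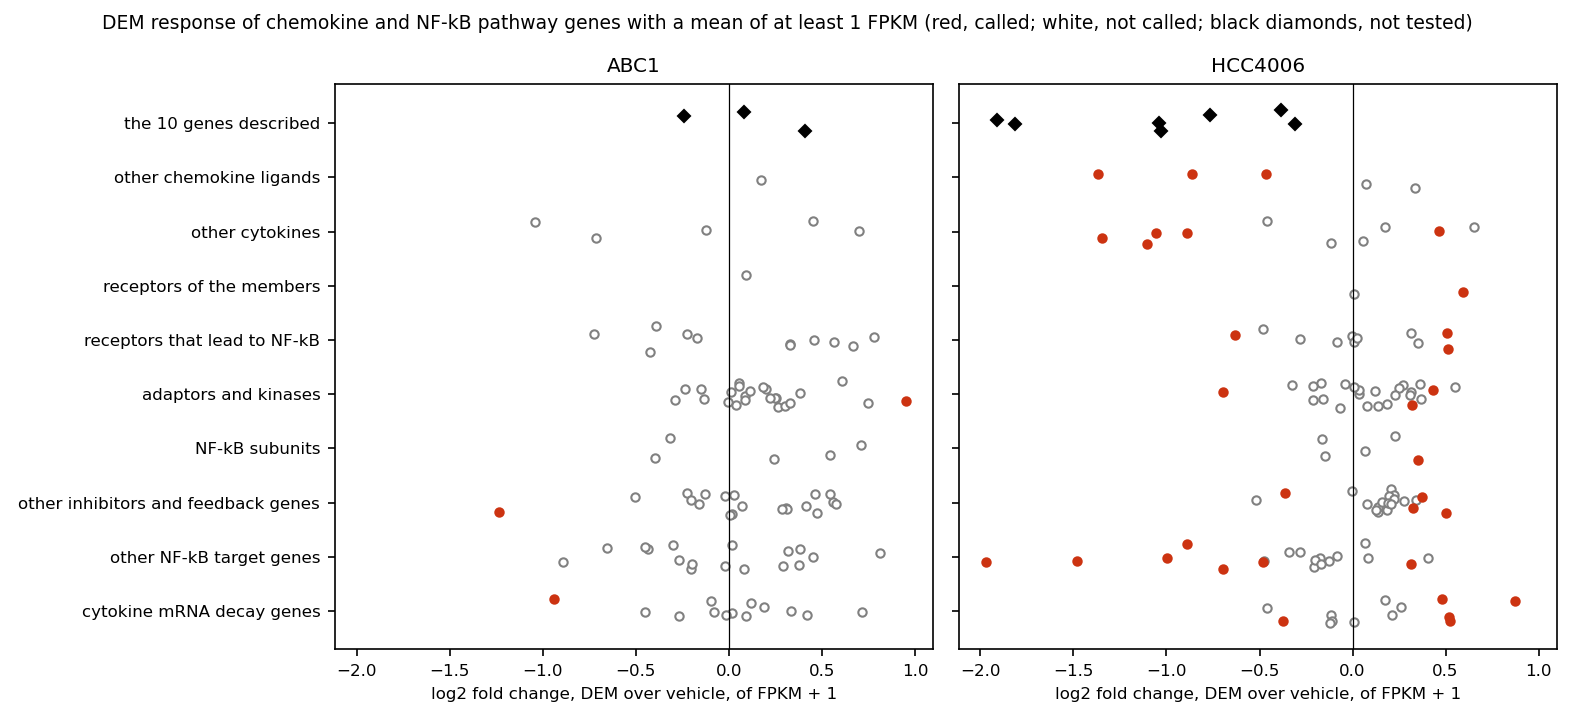
Log2 fold change of DEM over vehicle, on log2(FPKM + 1), for genes whose mean reached 1 FPKM in ABC1 (left) and HCC4006 (right), 1 row per list and 1 point per gene. Red points were called, white points were not, and black diamonds are the genes described here, with no test. In HCC4006 the 7 diamonds lie between -1.91 and -0.31, the 3 red points among other chemokines and 4 of the 5 among other cytokines lie below 0, and 4 of 5 red points among mRNA decay genes lie above it.

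Among other ligands, 3 of 5 chemokines tested in HCC4006 were called lower and 0 higher, beside 10.7% and 8.45% of all genes. *CCL2*, which encodes the monocyte attractant MCP-1, had 708 and 646 FPKM with vehicle, many times any of the 7 signals, and 271 and 253 with DEM. Its log2 fold change was -1.37 (adjusted p = 0.000707 by limma, standard error 0.07), with DEM libraries far below vehicle libraries. *CXCL17*, a mucosal chemokine, had 14.3 and 11.0 FPKM with vehicle and 5.60 and 7.39 with DEM (log2 fold change -0.86, standard error 0.17, adjusted p = 0.0243 by limma). *CCL28*, another mucosal chemokine, was called with a log2 fold change of -0.46. The 5 tested also held *CXCL16*, which had 97.7 to 110 FPKM in HCC4006 and 85.8 to 115 in ABC1 and was not called in either line. Among the 33 of 42 other chemokines found by symbol, *CXCL16* was the single one that reached the minimum in ABC1. There, *CCL2* was at 0 in 3 libraries and at 0.236 FPKM in the fourth.

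Of 10 other cytokines tested in HCC4006, 4 were called lower and 1, *IL18*, higher, beside 10.7% and 8.45% of all genes. *LIF*, a cytokine of the IL-6 family, had 65.5 and 60.1 FPKM with vehicle and 30.3 and 29.0 with DEM (log2 fold change -1.06, standard error 0.08, adjusted p = 0.00179 by limma). *TNFSF10*, the gene of the death ligand TRAIL, had 14.3 and 13.3 FPKM with vehicle and 5.25 and 4.43 with DEM (log2 fold change -1.35, standard error 0.12, adjusted p = 0.00288 by limma). *TNFSF15*, the gene of the TNF family ligand TL1A, and *CSF2*, the gene of GM-CSF, were called with log2 fold changes of -1.10 and -0.89. In ABC1, 0 of 5 cytokines tested were called by limma, and 3 had an unadjusted p under 0.05, beside 21.9% of all genes. *TNFSF15* in ABC1 had 2.16 and 1.74 FPKM with vehicle and 0.369 and 0.499 with DEM (log2 fold change -1.04, adjusted p = 0.0922 by limma). *TNF*, the gene of the classical inducer of NF-κB, was listed at 0 in all 8 libraries.

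Receptors of the chemokines were barely present. *CXCR1*, *CXCR2*, *CCR6* and *CX3CR1* did not exceed 0.129 FPKM in any library. *IL6ST*, the signalling subunit shared by receptors of the IL-6 family, had 47.9 to 74.6 FPKM over the 8 libraries and was not called. *IL6R*, the subunit that binds IL-6, had 23.2 and 18.5 FPKM with vehicle and 33.1 and 30.4 with DEM in HCC4006, and was called higher (log2 fold change 0.59, standard error 0.12, adjusted p = 0.0273 by limma). In ABC1 it stayed below 1 FPKM. Of 11 receptors that lead to NF-κB, 2 were called higher in HCC4006, *TNFRSF1A* (the main TNF receptor, log2 fold change 0.51) and *TNFRSF10A* (a TRAIL receptor, 0.51), and 1 lower, *IL1RAP* (a subunit of the IL-1 receptor, -0.63). These shares, 18.2% higher and 9.09% lower, stand beside 8.45% and 10.7% of all genes tested in HCC4006. In ABC1 the log2 fold change of *TNFRSF1A* was 0.78 (adjusted p = 0.116 by limma). There, 0 of 11 were called by limma, and 6 had an unadjusted p under 0.05, beside 21.9% of all genes.

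Of adaptors and kinases between receptor and NF-κB, 8% were called higher and 4% lower in HCC4006, beside 8.45% and 10.7% of all genes. In HCC4006, 2 of 25 were called higher, *BIRC2* (the ubiquitin ligase cIAP1, log2 fold change 0.43) and *RBCK1* (a subunit of the linear ubiquitin ligase, 0.32), and 1 lower, *MAP3K8* (a kinase, -0.69). In ABC1, *BIRC2* had a log2 fold change of 0.61 and *RBCK1* of 0.75, with adjusted p-values of 0.180 and 0.0564 by limma. There, 1 of 24 was called, *MAP3K14*, the gene of the kinase NIK of the noncanonical pathway. It rose from 17.4 and 16.7 FPKM with vehicle to 32.0 and 36.1 with DEM (log2 fold change 0.95, standard error 0.13, adjusted p = 0.0431 by limma), and in HCC4006 its log2 fold change was 0.36, with an adjusted p of 0.0637 by limma. With no minimum or with no trend, *MAP3K14* was not called in ABC1. Of the 5 subunits of NF-κB, *NFKB2*, the precursor of p52, was called higher in HCC4006, from 32.5 and 32.3 FPKM to 41.1 and 42.0 (log2 fold change 0.35, standard error 0.07, adjusted p = 0.0274 by limma). In ABC1 it had 20.0 and 22.7 FPKM with vehicle and 31.6 and 39.6 with DEM, and the groups did not overlap (log2 fold change 0.71, standard error 0.16, adjusted p = 0.0924 by limma). The other subunits, *RELA*, *RELB*, *REL* and *NFKB1*, had log2 fold changes from -0.16 to 0.23 in HCC4006 and from -0.40 to 0.54 in ABC1 and were not called.

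Of 20 other inhibitors and feedback genes, 3 were called higher in HCC4006 and 1 lower. The shares were 15% and 5%, beside 8.45% and 10.7% of all genes. The 3 were *TAX1BP1* (a partner of A20, log2 fold change 0.32), *ITCH* (a ubiquitin ligase that works with A20, 0.37) and *NKIRAS1* (0.50), a Ras-like gene whose product binds IκB proteins. *COMMD1*, whose product promotes the degradation of RELA, was called lower in both lines. It had 13.5 and 16.0 FPKM with vehicle and 6.23 and 5.17 with DEM in ABC1 (log2 fold change -1.23, standard error 0.16, adjusted p = 0.0422 by limma), and 20.0 and 20.0 with vehicle and 15.9 and 14.7 with DEM in HCC4006 (log2 fold change -0.36, adjusted p = 0.0418 by limma). It was the 1 gene of this list called in ABC1. The call of *COMMD1* held in 4 of 10 alternatives to the test in ABC1 and in 2 of 10 in HCC4006.

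Among 19 other NF-κB target genes tested in HCC4006, 6 were called lower and 1 higher. Those shares, 31.6% and 5.26%, stand beside 10.7% and 8.45% of all genes. The list's median log2 fold change was -0.21 beside -0.03 over all genes. *PTGS2*, which encodes the prostaglandin synthase COX-2, had 24.8 and 28.0 FPKM with vehicle and 6.03 and 5.91 with DEM, a 4.42-fold lower mean level (log2 fold change -1.97, standard error 0.10, adjusted p = 0.000677 by limma). In ABC1 it had 11.6 and 17.6 FPKM with vehicle and 12.5 and 16.9 with DEM, and the groups overlapped. *TNFAIP8*, an anti-apoptotic gene induced by TNF, had 60.8 and 58.7 FPKM with vehicle and 20.0 and 21.5 with DEM in HCC4006 (log2 fold change -1.48, standard error 0.08, adjusted p = 0.000707 by limma). *TNFAIP2* had 79.2 and 67.7 FPKM with vehicle and 36.8 and 35.6 with DEM (log2 fold change -0.997, standard error 0.10, adjusted p = 0.00333 by limma). *PSMB9*, a subunit of the immunoproteasome, had a log2 fold change of -0.89 in HCC4006 and was called there, and of -0.89 in ABC1, where the adjusted p was 0.0926 by limma. The remaining calls of the list, named after their values were seen, were *ICAM1* (-0.70) and *PLAU* (-0.48) lower and *XIAP* (0.31) higher. In ABC1, 0 of 17 were called by limma, and 5 had an unadjusted p under 0.05, beside 21.9% of all genes.

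**Figure D3:**
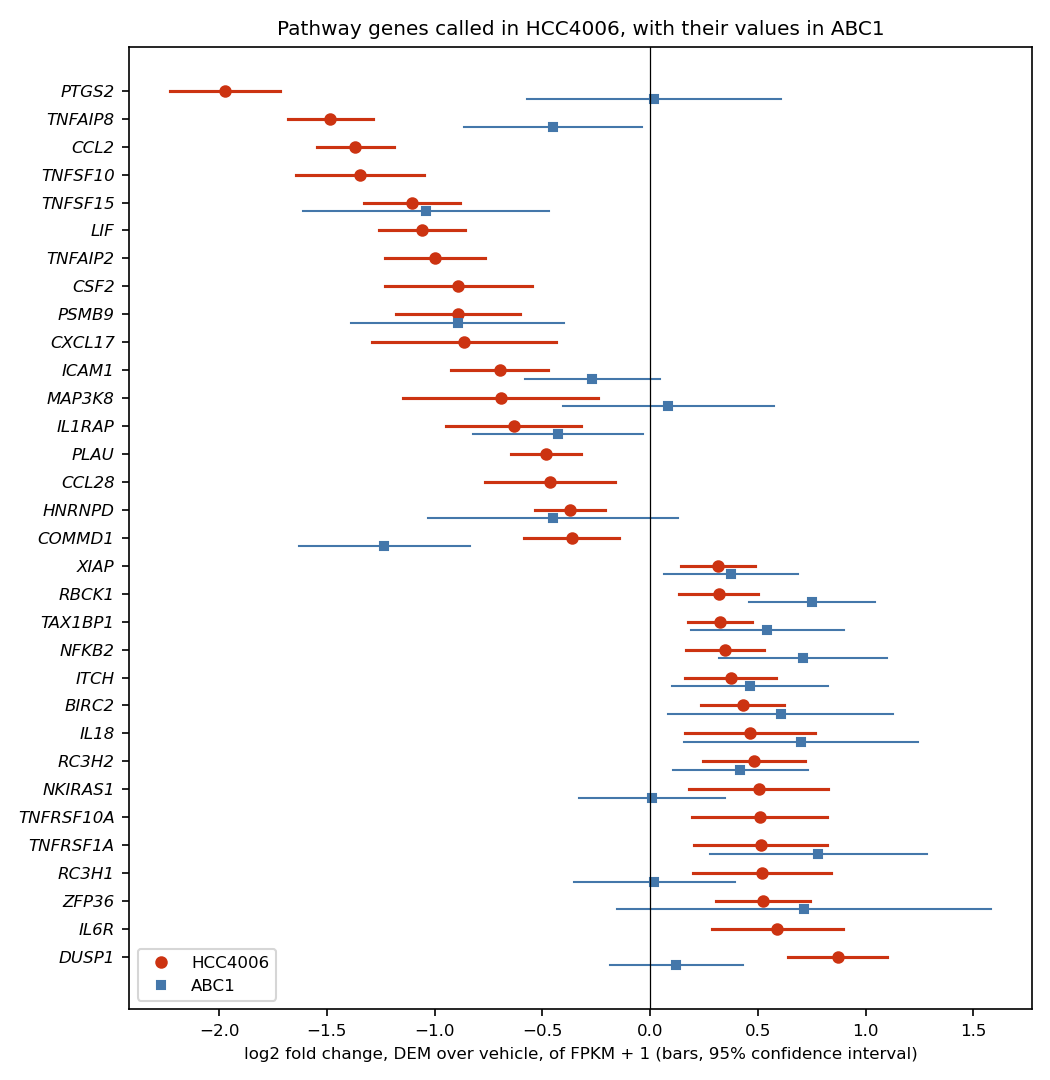
Log2 fold change of DEM over vehicle, on log2(FPKM + 1), of the 32 pathway genes called in HCC4006, sorted by value, with 95% confidence intervals. Red circles are HCC4006 and blue squares ABC1, drawn where the mean of the gene reached 1 FPKM. *PTGS2* has the lowest value in HCC4006, -1.97, and lies at 0.02 in ABC1, and *DUSP1* has the highest, 0.87.

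The last list held 13 genes that set the stability of cytokine mRNAs. In HCC4006, 4 were called higher and 1 lower (30.8% and 7.69%, beside 8.45% and 10.7% of all genes). *DUSP1*, which encodes a phosphatase of stress-activated MAP kinases, rose from 9.27 and 9.86 FPKM to 18.4 and 18.2 (log2 fold change 0.87, standard error 0.09, adjusted p = 0.00451 by limma). *ZFP36*, the gene of tristetraprolin, which binds AU-rich elements of cytokine mRNAs and promotes their decay, rose from 36.6 and 35.0 FPKM to 55.3 and 48.8 (log2 fold change 0.53, standard error 0.09, adjusted p = 0.0152 by limma). *RC3H1* and *RC3H2*, the genes of the roquins, were called higher with log2 fold changes of 0.52 and 0.48, and *HNRNPD* (-0.37) lower. *RC3H2* and *HNRNPD* were named after their values were seen. These calls depended on the settings, apart from that of *DUSP1*. In the model of all 8 libraries the adjusted p by limma was 0.305 for *ZFP36* and 0.254 for *HNRNPD*. With no minimum it was 0.211 for *RC3H1*, 0.122 for *RC3H2* and 0.0446 for *DUSP1*. In ABC1 the 1 call was *ZFP36L2*, a relative of *ZFP36*, which fell from 55.0 and 49.2 FPKM to 26.0 and 27.2 (log2 fold change -0.94, standard error 0.13, adjusted p = 0.0431 by limma). With no minimum or with no trend, *ZFP36L2* was not called in ABC1.

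Whether the response to DEM differed between the lines was tested for the other pathway genes by the interaction of line and treatment in a limma model of all 8 libraries. Of 109 tested, 4 were called, and 0.636% of all 13682 genes were. Of the 4, *CCL2* and *TNFAIP2* were below 1 FPKM in all libraries of ABC1 and entered the test through HCC4006, so their difference restates the change in HCC4006. The difference of log2 fold changes, HCC4006 minus ABC1, was -1.52 for *CCL2* (standard error 0.17, adjusted p = 0.0209), -1.99 for *PTGS2* (standard error 0.29, adjusted p = 0.0388) and -1.25 for *TNFAIP2* (standard error 0.19, adjusted p = 0.0452), each by limma. For *ZFP36L2* it was 1.15 (standard error 0.13, adjusted p = 0.0209), with 14.7 and 14.4 FPKM with vehicle and 17.1 and 17.0 with DEM in HCC4006, where it was not called. *PTGS2* and *ZFP36L2* were expressed in both lines. These calls held in 5 (*CCL2*), 3 (*PTGS2*), 2 (*TNFAIP2*) and 6 (*ZFP36L2*) of 12 alternatives.

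**Figure D4:**
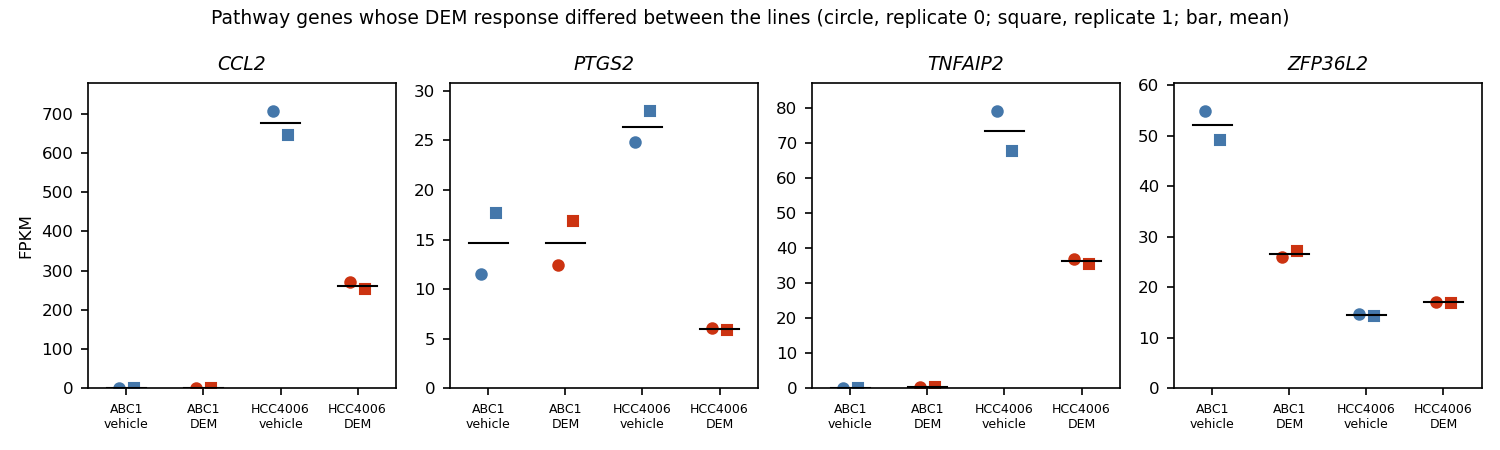
FPKM in the 8 libraries of the 4 pathway genes whose response to DEM was called different between the lines, 1 panel per gene with its own axis from 0. Blue points are vehicle and red points DEM libraries, circles are replicate 0 and squares replicate 1, and the bar is the mean of 2. *PTGS2* and *ZFP36L2* are expressed in both lines, while *CCL2* and *TNFAIP2* lie near 0 in ABC1.

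Apart from the 10, the genes with the most similar pattern over the 8 libraries were found by Pearson's r with the 10 genes' mean profile. Values were centred within each line. The 10 were scaled to equal SD before averaging, so those with few reads weighed as much as the others. The search covered 11536 genes whose mean reached 1 FPKM in both lines, genes of the lists above included. The profile weighs mainly DEM against vehicle in HCC4006, and points of a line share their libraries, so r is a description. The nearest were *INCENP*, a scaffold of the mitotic chromosomal passenger complex (r = 0.995), the helicase pseudogene *DDX12P* (0.988), *PTGS2* (0.984), the histone chaperone gene *ASF1B* (0.983) and the mitotic kinesin gene *KIF18B* (0.982). *INCENP* had 28.7 and 29.3 FPKM with vehicle and 17.8 and 16.2 with DEM in HCC4006. In ABC1 it had 31.8 and 37.4 with vehicle and 33.6 and 40.6 with DEM, so that, as for *NFKBIA* and *BIRC3*, the libraries numbered 1 were the higher ones. *ASF1B* had 29.7 and 31.7 FPKM with vehicle and 15.0 and 15.3 with DEM in HCC4006.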

How the data were processed

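The RNA-seq data of the ABC1 and HCC4006 lines, 2 libraries per line and treatment, were analysed from the deposited tables. Per the study's methods, polyA-selected RNA was prepared with a strand-specific kit, reads were aligned to hg19 with TopHat, and Cufflinks estimated expression. The submitters' processing notes list bcl2fastq 2.15.0, cutadapt 1.15, STAR 2.5.3a, SAMtools, Cuffnorm, HTSeq, DESeq2 and R 3.2.0 instead, with no role for each. The authors deposited FPKM per gene and library. They also deposited a comparison table per line, from which the base mean alone (a signal, the authors' mean of scaled counts over the line's libraries) was used as a measure of depth. Its fold changes, errors, test statistics and p-values were not used. No read counts per library were used, so no counting intervals are given.

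Symbols were found for 55534 identifiers in GENCODE on GRCh37. DEM was compared with vehicle in each line with limma 3.58.1 in R 4.3.3 on log2(FPKM + 1) (variance trended on the mean) for genes whose mean reached 1 FPKM, with Benjamini-Hochberg adjustment and a threshold of 0.05. Fold changes on this scale understate changes of low genes. The median standard error was 0.166 in ABC1 and 0.118 in HCC4006, and the smallest change called was 0.798 and 0.216. On simulated data with 200 genes changed by a log2 value of 1.5, 56% were recovered in ABC1 (12470 genes run) and 84.5% in HCC4006 (13379 genes). The changed genes were drawn from those with a mean log2(FPKM + 1) above 1.5, and noise was independent between genes and libraries. These shares therefore do not cover genes near the minimum or shifts shared by a whole library. Promoters were read from the RefSeq table, and identities were taken from alignments by Biopython 1.88.

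The 10 genes, the pathway lists, the markers and the tests were chosen with earlier results of these data known. All 10 were named with their values. Of each other list, the genes called in either line were named, at most the 4 with the largest change, besides those whose response was called different between the lines and the 5 genes most like the 10. Small lists were completed by name. Alternatives were a pseudocount of 0.1, no minimum, median-of-ratios scaling, no trend, 1 model of all 8 libraries, a replicate block and leaving out each library. Of the 191 other pathway genes, 13 were not found by symbol and were not used here. Among these were *CCL3*, *CCL4*, *CCL5*, *IKBKG*, *IKBKE* and *SOD2*, whose levels are not known here.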

Additional observations from a re-analysis of the deposited data

Results flagged for a closer look

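*CCL2*, *PTGS2*, *TNFAIP2* and *ZFP36L2* were singled out because their response to DEM was called different between the lines by the interaction test in limma. *CCL2* and *TNFAIP2* stayed below 1 FPKM in all libraries of ABC1 and entered the test through HCC4006, so for them the test restates the change in HCC4006 and compares no response in ABC1. The difference of log2 fold changes, HCC4006 minus ABC1, was -1.52 for *CCL2*, -1.99 for *PTGS2*, -1.25 for *TNFAIP2* and 1.15 for *ZFP36L2*. Over 12 alternatives the adjusted p by limma ranged from 0.0147 to 0.228 for *CCL2*, from 0.0329 to 0.205 for *PTGS2*, from 0.041 to 0.212 for *TNFAIP2* and from 0.0107 to 0.152 for *ZFP36L2*.

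*CXCL1* was singled out because both DEM libraries lay above both vehicle libraries in ABC1 and below them in HCC4006. Its mean level with DEM was 0.189 FPKM in ABC1, where vehicle was at 0, and 0.033 FPKM in HCC4006, where vehicle was at 0.882. The difference was not tested, and the share of all genes with such opposite patterns was not taken. The base means of 1.24 and 4.68 leave *CXCL1* near the lower limit of detection.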

How the results depend on the processing

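The counts are of calls by limma. With no minimum, 0 pathway genes were called higher (19 at an unadjusted p under 0.05) and 0 lower (11) in ABC1, and 1 and 5 in HCC4006. Over all genes 0 (1908) and 0 (1975) were called in ABC1 and 177 and 193 in HCC4006. With no trend, 0 (19) and 0 (8) pathway genes were called in ABC1, and 4 were called higher in HCC4006. Of all genes, 27 (1277) and 6 (1431) were called in ABC1. Median-of-ratios scaling called 2 pathway genes higher in ABC1 and 158 and 93 of all genes. It moved the median log2 fold change in ABC1 from -0.02 to -0.00341 and in HCC4006 from -0.03 to 0.00253. The model of all 8 libraries called 12 and 5 pathway genes and 738 and 756 of all genes in ABC1, and 3 pathway genes higher and 706 and 847 of all genes in HCC4006. A pseudocount of 0.1 left 1 of the 4 differences between the lines called.

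Whether the replicate numbers pair the libraries cannot be settled from 2 pairs per line. Deviations of same-numbered libraries correlated at 0.258 across 12635 genes in ABC1 and at 0.0544 across 13542 genes in HCC4006. With the replicate block, 20 and 7 pathway genes and 1185 and 1163 of all genes were called higher and lower in ABC1, and 20 and 20 pathway genes and 1457 and 1847 of all genes in HCC4006.

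Leaving out each library in turn left 0 pathway genes called in ABC1 in either direction (5 to 17 higher and 4 to 11 lower at an unadjusted p under 0.05), and 10 to 51 higher and 8 to 18 lower of all genes. In HCC4006 it left 1 to 4 higher and 9 to 13 lower pathway genes, and 290 to 464 higher and 344 to 564 lower of all genes. The lowest counts of lower calls, 9 and 344, came without vehicle library 1. Of the differences between the lines, 0 to 2 stayed past the threshold. In HCC4006 the log2 fold change ranged from -2.20 to -1.54 for *CXCL8*, -2.30 to -1.81 for *CX3CL1*, -1.58 to -0.98 for *CXCL2*, -1.32 to -0.74 for *IL6*, -0.95 to -0.67 for *BIRC3*, -0.51 to -0.26 for *NFKBIA* and -0.34 to -0.27 for *TNFAIP3* over 7 alternatives. In ABC1 it ranged from -0.17 to 0.33 for *NFKBIA*, -0.04 to 0.87 for *BIRC3* and -0.40 to -0.12 for *TNFAIP3*, so the sign for *NFKBIA* and *BIRC3* depended on the library left out. Depth limits *CXCL1*, *CXCL3* and *CCL20* in both lines and the 7 signals in ABC1, whose base means were at most 8.07.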

Other observations

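Among cytokines below the minimum, *IL1A*, which encodes interleukin-1α, an inducer of NF-κB, had 0.366 and 0.217 FPKM with vehicle and 1.19 and 0.985 with DEM in ABC1, and its groups did not overlap. In HCC4006 it did not exceed 0.0582 FPKM. *IL1B* stayed at or below 0.324 FPKM in all 8 libraries. Of the epithelial markers, the keratin genes *KRT7*, *KRT8* and *KRT18* were called lower with DEM in HCC4006 by limma. *KRT7* had 2106 and 2054 FPKM there with vehicle and 1460 and 1468 with DEM, and in ABC1 25.9 and 25.4 with vehicle and 10.4 and 14.0 with DEM, where it was not called.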
